A study of Mus musculus with 12 samples.

Results

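Levels of 9 genes that are best known from hair, sperm, muscle, gut and skin were followed in sorted mouse regulatory T cells (Treg): Krt86, Krt87, Csta2, Actn2, Scin, Prm2, Tnp2, Tff1 and Pla2g4f. The 9 genes, each with 1 probe, were chosen by their difference in signal between IL10+ and IL10- tumour Treg, out of 15522 features tested and 41174 probes on the array. The values of that contrast are therefore given as a description, and the members were tested only in comparisons that the choice did not use. The labels name no threshold for the choice.

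Treg hold immune responses in check, and some of them secrete interleukin-10 (IL-10), an inhibitory cytokine. Gene expression was measured on 12 single-colour arrays, 3 for each of 4 sorted populations. In the tumour-bearing groups, the MC38 colon carcinoma line had been placed under the skin of syngeneic C57BL/6 reporter mice, and established tumours were pooled at 2 weeks. IL10+ and IL10- tumour Treg came from VERT-X mice, in which EGFP reports IL-10, and were taken as CD25+ CD120b+/low cells. Total tumour Treg came from FoxP3-EGFP mice, in which EGFP reports FoxP3, and spleen Treg came from tumour-free FoxP3-EGFP mice. All 4 populations first passed a gate for CD4 T cells (CD45+ CD3+ CD4+ cells with low CD11b). The labels give 3 experiments per population but not the number of mice or cells, and p-values measure only the spread between these samples.

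The genes belong to families with specialised roles. Keratins build the intermediate filaments of epithelia and hair, stefins inhibit cysteine proteases inside cells, and alpha-actinin and scinderin bind or cut actin filaments. Protamines and transition proteins pack sperm DNA, trefoil factors are secreted onto mucosal surfaces, and cytosolic phospholipases A2 release fatty acids from membrane lipids.

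Levels are log2 values of the processed signal, set so that 0 is the 75th percentile over the probes of the same array. Between 42.2% and 65.4% of probes lay well above background on an array, and the 75th percentile of the signal ran from 92.3 on IL10+ replicate 3 to 606 on IL10+ replicate 1. Il10 itself had a level of 0.05 ± 0.43 (SD, n = 3) in IL10- Treg, 4.69 ± 0.89 (SD, n = 3) in IL10+ Treg and 5.30 ± 0.38 (SD, n = 3) in total tumour Treg. The single Foxp3 probe was well above background on all 6 VERT-X arrays and on none of the 6 FoxP3-EGFP arrays.

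The library labelled spleen Treg replicate 2 stood apart from the other spleen libraries. Of 11 tested Treg and T cell marker genes, 5 lay more than 2 log2 units below both other spleen arrays, among them Il2ra (CD25) and Ctla4. The Il2ra level was -3.90 there, against 0.72 and 1.27 on the other spleen arrays. The Ctla4 level was -0.89, against 3.12 and 3.29. The T cell receptor gene Cd3e was not low in this library, with 3.42 against 3.24 and 3.16. The members' comparisons with spleen are therefore given with and without this library. For some other genes the value without it is printed where it ends or adds a call or moves the fold by over 1.5 times.

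**Figure D1:**
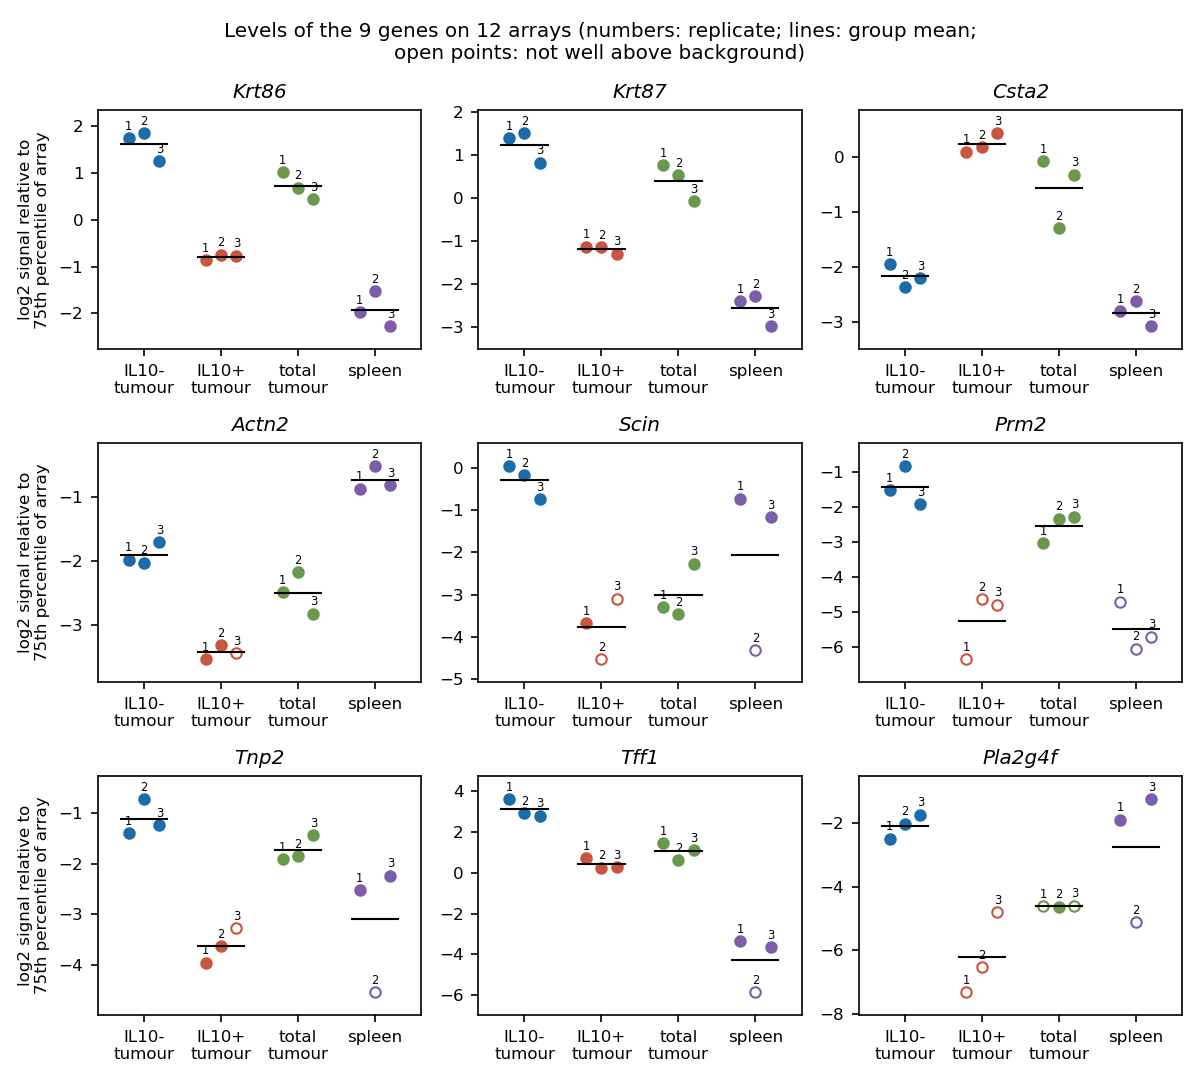
Level of each of the 9 genes (log2 scale, 0 at the 75th percentile of an array's probes) on the 12 arrays, by group, with the replicate number over each point, a line at the group mean and open points where the spot was not well above background. The IL10- and IL10+ points do not overlap in any panel, by the choice of genes, and spleen replicate 2 lies far below the other spleen arrays for Scin, Pla2g4f, Tff1 and Tnp2.

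Krt86 and Krt87 encode type II keratins of hair and nail. The Krt86 probe lies at chr15:101304894-101304953 and the Krt87 probe at chr15:101261643-101261702 (mm8, the build of the array files). Which exon or untranslated region a probe lies in was not analysed here. The array's annotation of the Krt87 probe also lists Krt86, so that signal of these close relatives may be shared between the probes. Krt86 levels were 1.75, 1.85 and 1.25 in IL10- Treg, -0.87, -0.74 and -0.76 in IL10+ Treg, 1.02, 0.69 and 0.44 in total tumour Treg and -1.97, -1.52 and -2.27 in spleen Treg. The 4 groups formed separate bands, highest in IL10- and lowest in spleen, with total tumour Treg between the IL10 fractions. Krt87 levels were 1.38, 1.49 and 0.81 in IL10-, -1.13, -1.15 and -1.30 in IL10+, 0.76, 0.53 and -0.08 in total tumour and -2.40, -2.27 and -2.97 in spleen Treg. The groups fell in the same order as for Krt86 and again did not overlap.

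In the contrast that chose them, IL10+ minus IL10-, the differences were -2.41 ± 0.24 (SE) for Krt86 and -2.42 ± 0.27 (SE) for Krt87. Between total tumour and spleen Treg, which the choice did not use, Krt86 rose by 2.64 ± 0.24 (SE) on the log2 scale, or 6.23-fold (limma, adjusted p = 2.84e-05). Krt87 rose by 2.95 ± 0.27 (SE), or 7.72-fold (limma, adjusted p = 3.26e-05). The differences were 2.84 and 3.09 without spleen replicate 2. With normexp, a model-based correction of the mean spot signal for background, run with an offset of 50, the folds were 3.84 and 4.21 (limma, adjusted p = 0.00316 and 0.00325). Across the 12 arrays the levels of the 2 probes had a Pearson r of 0.996, and of 0.907 for deviations from the group means, as a description of probes that may share signal.

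**Figure D2:**
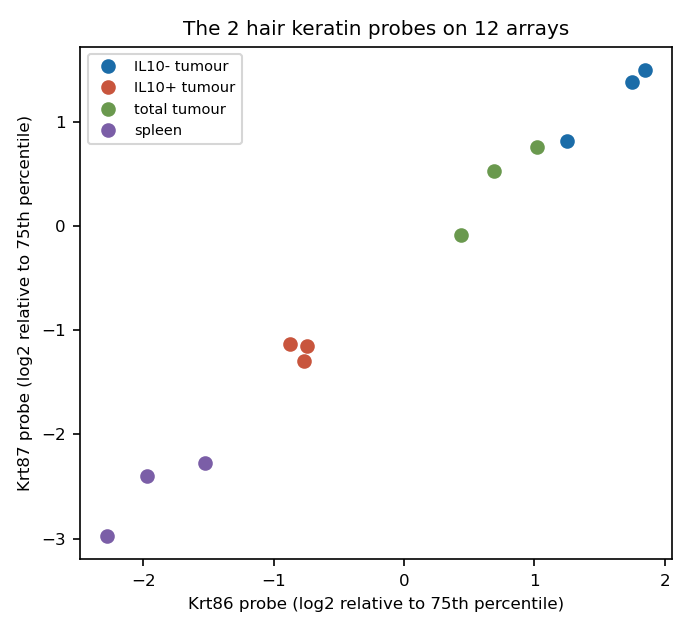
Level of the Krt87 probe against that of the Krt86 probe on the 12 arrays (log2 scale as above), coloured by group. The points lie close to 1 line with r = 0.996, with IL10- Treg at the upper right, total tumour next, then IL10+ Treg, and spleen Treg at the lower left.

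Of 13 hair and nail keratins listed, 11 had a probe and 3 passed the filter on dim probes, Krt85 being the only one besides these 2 members. Krt85 levels averaged -2.84 ± 0.84 (SD, n = 3) in IL10-, -4.84 ± 1.01 (SD, n = 3) in IL10+, -4.91 ± 0.89 (SD, n = 3) in total tumour and -6.20 ± 0.40 (SD, n = 3) in spleen Treg. Krt85 was well above background on 5 of the 12 arrays, 1 of them from total tumour and none from spleen, and did not pass the test between total tumour and spleen (limma, adjusted p = 0.116). Among 20 other keratins, 7 were tested between total tumour and spleen Treg. Krt18 rose by 2.36 ± 0.74 (SE) and Krt10 fell by 1.28 ± 0.30 (SE) (limma, adjusted p = 0.0277 and 0.0072). The Krt18 difference was 1.35 ± 0.44 (SE) without spleen replicate 2. Krt14, below background on all spleen arrays, was at least 2.74-fold higher in total tumour, with group means of -2.60 and -5.22 (limma, adjusted p = 0.0165). Krt13 (adjusted p = 0.352), Krt16 (0.27), Krt17 (-0.45) and Krt80 (-0.75) did not pass, the last 3 given as log2 differences. Of 21 markers of skin keratinocytes and hair follicle, the 2 tested were Krt10 and Krt14, while 19, among them Krt5, Lor, Flg and the hair keratins Krt31 and Krt35, were too dim to test.

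Csta2 encodes a stefin A, an inhibitor of cysteine cathepsins, and was the only member higher in IL10+ than in IL10- Treg. Its probe lies at chr16:36176605-36176664 (mm8). Csta2 levels were 0.09, 0.16 and 0.42 in IL10+ Treg, -1.95, -2.37 and -2.21 in IL10-, -0.09, -1.30 and -0.33 in total tumour and -2.81, -2.63 and -3.08 in spleen Treg. All 12 spots were well above background, and the 4 groups did not overlap, with the second total tumour array below the other total tumour arrays. The IL10+ minus IL10- difference, which chose the gene, was 2.40 ± 0.29 (SE). Between total tumour and spleen Treg, Csta2 rose by 2.27 ± 0.29 (SE), or 4.82-fold (limma, adjusted p = 0.000219), and by 2.37 without spleen replicate 2. With normexp the fold was 2.68 (limma, adjusted p = 0.00817).

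The bases before the Csta2 start site are shown because Csta2 alone among the members ran higher in the IL10+ fraction. The 250 bases upstream of the RefSeq start site (GRCm38.p6, chr16:36221312-36221561, plus strand) hold 2 matches to the CCAAT box on the other strand, in capitals as ATTGG, at -194 and -149 from the start site.
Csta2: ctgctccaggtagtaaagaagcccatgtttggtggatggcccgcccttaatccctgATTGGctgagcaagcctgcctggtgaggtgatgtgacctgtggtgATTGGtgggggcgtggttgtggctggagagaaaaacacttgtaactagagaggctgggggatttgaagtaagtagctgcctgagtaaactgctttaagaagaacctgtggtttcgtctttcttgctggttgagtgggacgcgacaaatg
At least 1 CCAAT match on either strand was present in 37.4% of 32544 promoter windows of 300 bases.

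Of 13 stefins and cystatins listed, 9 had a probe and 6 were tested. Besides Csta2, Cst6 rose by 5.03 ± 0.47 (SE), Cstb by 1.42 ± 0.25 (SE) and Cst3 by 0.80 ± 0.19 (SE) in total tumour over spleen Treg (limma, adjusted p = 3.86e-05, 0.00162 and 0.00729). Csta1, a close relative of Csta2 in the same gene cluster, had a difference of 1.83 ± 0.68 (SE) that did not pass (limma, adjusted p = 0.0535) but was 2.53 ± 0.61 (SE) and passed without spleen replicate 2 (limma, adjusted p = 0.0117). Cst7 did not pass either way, with 1.25 ± 0.56 (SE) over all arrays and 0.51 without that library (limma, adjusted p = 0.0969 and 0.295). Csta1 levels averaged -4.35 ± 0.87 (SD, n = 3) in IL10- and -2.26 ± 0.41 (SD, n = 3) in IL10+ Treg, whereas Cstb averaged 5.75 ± 0.49 (SD, n = 3) and 5.90 ± 0.37 (SD, n = 3).

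Actn2 encodes alpha-actinin-2, the actin crosslinker of the muscle Z-disc. Its probe is annotated at chr13:12327056-12329428 (mm8), coordinates 2373 bases apart end to end, where those of the other members' probes span 60. This is a distance on the genome and not a probe length, and probe sequences were not at hand. Actn2 levels were -1.98, -2.03 and -1.71 in IL10-, -3.53, -3.32 and -3.43 in IL10+, -2.49, -2.18 and -2.82 in total tumour and -0.88, -0.53 and -0.82 in spleen Treg. Spleen was highest and IL10+ lowest, and the groups did not overlap. The spot on IL10+ replicate 3 was not well above background. The choosing difference, IL10+ minus IL10-, was -1.52 ± 0.19 (SE). Between total tumour and spleen Treg, Actn2 fell by 1.76 ± 0.19 (SE), or 3.38-fold (limma, adjusted p = 7.6e-05), and by 1.65 without spleen replicate 2. With normexp this call was lost, with a difference of -0.71 ± 0.55 (SE) (limma, adjusted p = 0.542), and the choosing difference turned to 0.25.

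The upstream bases of Actn2 are shown because it alone among the members was called lower in total tumour than in spleen Treg with all 12 arrays. They lie at chr13:12340733-12340982 (GRCm38.p6, minus strand, RefSeq) and hold 2 matches to CACGTG, an E-box of the kind bound by Myc and USF proteins, in capitals at -84 and -48.
Actn2: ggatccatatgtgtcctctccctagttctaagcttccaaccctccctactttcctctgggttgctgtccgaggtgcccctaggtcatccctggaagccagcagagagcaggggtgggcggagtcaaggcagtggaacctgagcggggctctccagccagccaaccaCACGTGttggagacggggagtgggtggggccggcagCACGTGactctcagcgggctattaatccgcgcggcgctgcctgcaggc
CACGTG was present in 7.17% of the 32544 windows, and it reads the same on both strands.

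Of the other alpha-actinins, Actn1 had a difference of -1.61 ± 0.59 (SE) between total tumour and spleen (limma, adjusted p = 0.052) and Actn4 of 0.03 ± 0.15 (SE) (limma, adjusted p = 0.881), while Actn3 was too dim to test. Among 24 markers of skeletal and cardiac muscle, 12 were tested. Tnnt2 and Neb rose by 3.32 ± 0.93 (SE) and 2.95 ± 0.90 (SE) (limma, adjusted p = 0.0165 and 0.0238), the opposite direction to Actn2, and none was called lower. These differences were 2.20 and 1.63 without spleen replicate 2. Of the 12 tested markers only 6 had a difference above 0, and the median difference was 0.09. The other 12, among them Ckm, Acta1, Myh2 and Des, were too dim. The summed muscle marker level ran from 1.93 to 1.96 in total tumour and from 1.51 to 1.87 in spleen Treg.

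Scin encodes scinderin, a calcium-dependent actin-severing protein of the gelsolin family, and its probe lies at chr12:40570353-40570412 (mm8). Scin levels were 0.03, -0.17 and -0.74 in IL10-, -3.67, -4.52 and -3.09 in IL10+, -3.30, -3.47 and -2.27 in total tumour and -0.74, -4.31 and -1.18 in spleen Treg. IL10- Treg and spleen replicates 1 and 3 were high, and IL10+, total tumour and spleen replicate 2 were low. The spots of IL10+ replicates 2 and 3 and of spleen replicate 2 were not well above background. The choosing difference was -3.47 ± 0.82 (SE). The difference between total tumour and spleen, -0.94 ± 0.82 (SE), did not pass (limma, adjusted p = 0.391). It was -2.06 ± 0.48 (SE) without spleen replicate 2 and passed (limma, adjusted p = 0.00979).

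Of 8 gelsolin family genes, 7 were tested. Capg rose by 1.95 ± 0.56 (SE) and Svil fell by 0.67 ± 0.20 (SE) between total tumour and spleen (limma, adjusted p = 0.0194 and 0.0193). Gsn (0.77), Vill (1.32), Flii (0.06) and Vil1 (-0.47) did not pass, given as log2 differences. Without spleen replicate 2 the Capg difference was 1.18, Svil did not pass (limma, adjusted p = 0.0633), and 2 genes of the family were called higher. These were Capg and another that had not passed over all arrays, whose value is not printed here.

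Prm2 and Tnp2 encode proteins that pack DNA in maturing sperm, protamine 2 and transition protein 2, and they lie in 1 cluster on chromosome 16. Their probes lie at chr16:10705034-10705093 and chr16:10702057-10702116 (mm8). In the gene order of GRCm38.p6 only Prm3, which had no probe here, separates them. Prm2 levels were -1.52, -0.85 and -1.92 in IL10-, -6.33, -4.62 and -4.79 in IL10+, -3.03, -2.34 and -2.28 in total tumour and -4.70, -6.03 and -5.70 in spleen Treg. IL10- Treg were highest and total tumour next, without overlap, and IL10+ and spleen shared the lowest range. Prm2 was well above background on all IL10- and total tumour arrays and on no IL10+ or spleen array, so it entered the fit through the groups in which it was high. Tnp2 levels were -1.40, -0.74 and -1.25 in IL10-, -3.95, -3.62 and -3.27 in IL10+, -1.92, -1.85 and -1.45 in total tumour and -2.52, -4.52 and -2.24 in spleen Treg. The order of the tumour groups was that of Prm2, while spleen replicates 1 and 3 lay above every IL10+ array and spleen replicate 2 below every one.

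Where a group lies below background on every array, a fold is a bound, computed against the lowest signal well above background on each array or the dim spot's own value if higher. On this basis Prm2 was at least 5.68-fold lower in IL10+ than in IL10- Treg, in the contrast that chose it, with group means of -5.25 and -1.43. It was at least 2.83-fold higher in total tumour than in spleen Treg, with group means of -2.55 and -5.47 (limma, adjusted p = 0.00136, and 0.00644 without spleen replicate 2). With normexp the difference did not pass (1.06 ± 0.69 (SE); limma, adjusted p = 0.435). Total tumour is 1 of the groups that brought Prm2 through the filter and spleen is not, so a difference was built into its entry and the test is no independent support. For Tnp2 the choosing difference was -2.49 ± 0.51 (SE). Its difference between total tumour and spleen, 1.35 ± 0.51 (SE), did not pass (limma, adjusted p = 0.0548). Without spleen replicate 2 the difference was 0.64 ± 0.27 (SE) (limma, adjusted p = 0.0969), and without spleen replicate 1 or 3 it was 1.64 or 1.78 and passed (limma, adjusted p = 0.0473 and 0.0246). Leaving out 1 spleen array thus decides whether Tnp2 passes.

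The upstream bases of Prm2 and Tnp2 are shown because these neighbours ran in the same order over the tumour groups. They lie at chr16:10792106-10792355 and chr16:10788656-10788905 (GRCm38.p6, minus strand, RefSeq). The Prm2 sequence holds TATAAA on the other strand, in capitals as TTTATA, at -31.
Prm2: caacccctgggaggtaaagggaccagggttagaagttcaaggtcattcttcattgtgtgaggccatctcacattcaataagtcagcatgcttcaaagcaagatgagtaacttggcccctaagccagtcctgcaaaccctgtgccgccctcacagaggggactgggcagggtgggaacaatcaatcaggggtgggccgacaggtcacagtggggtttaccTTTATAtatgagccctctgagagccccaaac
Tnp2: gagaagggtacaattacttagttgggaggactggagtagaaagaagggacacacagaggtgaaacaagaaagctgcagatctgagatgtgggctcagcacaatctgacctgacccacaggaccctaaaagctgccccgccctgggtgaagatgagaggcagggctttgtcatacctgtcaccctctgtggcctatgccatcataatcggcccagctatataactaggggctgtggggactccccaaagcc
TATAAA was present in 13.6% of the windows. Both strands were searched for 7 motifs, namely the TATA box, the CCAAT box and the E-box spelled out with the sequences, the cyclic AMP response element TGACGTCA, the AP-1 site TGANTCA, the forkhead site TGTTTAC and the GATA site AGATAA. RefSeq promoter windows were matched for 6 of the 9 members, and those of Tnp2, Scin and Pla2g4f held none of these letters. The last 4 motifs listed were present in 1.80%, 7.79%, 3.66% and 11.2% of all windows. The motif list was chosen after the sequences had been seen, and a match is a description of letters.

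Other genes of sperm were compared from the family and spermatid lists. Tnp1, the other transition protein, averaged -3.71 ± 0.69 (SD, n = 3) in IL10- and -4.33 ± 0.46 (SD, n = 3) in IL10+ Treg, with a total tumour minus spleen difference of -0.04 ± 0.43 (SE) (limma, adjusted p = 0.953). Prm1 was too dim to test. Of 17 spermatid markers, 5 were tested and 4 rose in total tumour over spleen, namely Crem with 3.74 ± 0.22 (SE), Odf2 with 1.70 ± 0.25 (SE), Tssk6 with 1.62 ± 0.49 (SE) and Hspa1l (limma, adjusted p = 2.82e-06, 0.000512, 0.0246 and 0.0447). Hspa1l was below background on all spleen arrays and did not pass without spleen replicate 2 (limma, adjusted p = 0.0754). It was well above background on 3 arrays only, 2 of them from total tumour. Its entry through the filter thus leaned on total tumour, and its rise is no independent support. Between the fractions 4 of the 5 were lower on average in IL10+ than in IL10- Treg, with a median difference of -0.22, which was 0.55 with normexp. Crem, a cyclic AMP responsive factor also made by T cells, averaged 4.81 ± 0.20 (SD, n = 3) in IL10- and 5.03 ± 0.34 (SD, n = 3) in IL10+ Treg. Akap4, Odf1, Ldhc and 9 other spermatid markers were too dim.

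Tff1 encodes trefoil factor 1, a small peptide secreted with gastric mucus, and showed the widest gap between tumour and spleen of the 9 genes. Its probe lies at chr17:30888538-30888597 (mm8). Tff1 levels were 3.62, 2.93 and 2.80 in IL10-, 0.72, 0.26 and 0.28 in IL10+, 1.44, 0.61 and 1.11 in total tumour and -3.37, -5.85 and -3.64 in spleen Treg. IL10- Treg stood above the rest, spleen stood far below, and IL10+ and total tumour overlapped. The spot of spleen replicate 2 was not well above background. The choosing difference was -2.70 ± 0.56 (SE). Between total tumour and spleen Treg, Tff1 rose by 5.34 ± 0.56 (SE), or 40.5-fold (limma, adjusted p = 7.33e-05). Without spleen replicate 2 it rose by 4.56 ± 0.31 (SE) (limma, adjusted p = 2.06e-05). With normexp it rose by 2.82 ± 0.35 (SE), or 7.07-fold (limma, adjusted p = 0.00116).

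Tff2 and Tff3, the other trefoil factors, were too dim to test. Of 20 markers of gastrointestinal epithelium and carcinoma, 6 were tested, and Cdh1 and Krt18 rose between total tumour and spleen (limma, adjusted p = 0.0353 and 0.0277). Cdh1 was below background on all spleen arrays and at least 1.24-fold higher in total tumour, with group means of -3.74 and -4.73. Without spleen replicate 2 Krt18 passed and Cdh1 did not (limma, adjusted p = 0.042 and 0.0564). Epcam (0.80) and Lgals4 (-0.42), the brightest of the list with Krt18, did not pass, given as log2 differences. Cdx2, Muc2, Gkn1 and Krt20 were among 14 markers too dim to test. The summed level of the list ran from 1.07 to 2.01 in IL10-, 1.21 to 2.39 in IL10+, 1.97 to 2.42 in total tumour and 1.72 to 2.19 in spleen Treg, and these ranges overlapped.

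Pla2g4f encodes a cytosolic phospholipase A2, and its probe lies at chr2:119991979-119992038 (mm8). Pla2g4f levels were -2.48, -2.02 and -1.73 in IL10-, -7.31, -6.52 and -4.79 in IL10+, -4.62, -4.63 and -4.59 in total tumour and -1.89, -5.10 and -1.24 in spleen Treg. IL10- Treg and spleen replicates 1 and 3 were high and the rest low, as for Scin. The spots were well above background on 3 IL10-, 0 IL10+, 1 total tumour and 2 spleen arrays, so most of the low values lie below background. Pla2g4f was at least 3.62-fold lower in IL10+ than in IL10- Treg, the contrast that chose it, with group means of -6.21 and -2.08. The difference between total tumour and spleen, -1.86 ± 0.91 (SE), did not pass (limma, adjusted p = 0.125). It was -3.04 ± 0.61 (SE) without spleen replicate 2 and passed (limma, adjusted p = 0.00484). Of 6 group IV phospholipases, 4 were tested. Pla2g4a, the widely expressed member, rose by 2.29 ± 0.36 (SE) in total tumour over spleen (limma, adjusted p = 0.000788), while Pla2g4b (0.25) and Pla2g4c (-0.01) did not pass and Pla2g4e was too dim.

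**Figure D3:**
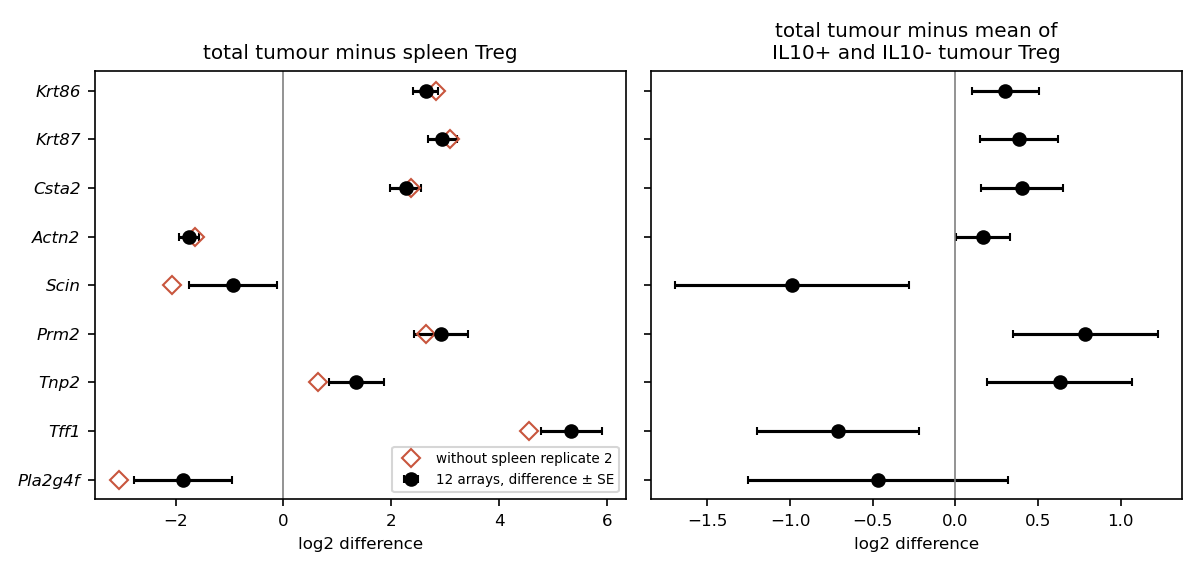
Log2 difference ± SE (limma, 12 arrays) of the 9 genes between total tumour and spleen Treg, with open diamonds for the value without spleen replicate 2 (left), and between total tumour Treg and the mean of the IL10+ and IL10- fractions (right, on a narrower scale). At left Krt86, Krt87, Csta2, Prm2 and Tff1 lie above 0 and Actn2 below, and the diamonds of Scin and Pla2g4f lie further below 0; at right the values run from -0.99 to 0.79 and none passed the test.

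Of the 9 members, all of which passed the filter, 5 rose and 1 fell between total tumour and spleen Treg. Of the 5, Prm2 had entered through its bright groups, and with normexp 4 rose and none fell, the lost calls being Prm2 and Actn2. Of all features 22% rose and 20.3% fell, 42.3% in all. The median difference of the members was 2.27, against -0.01 for all features. Total tumour and spleen arrays did not overlap for 7 members, against 65.8% of all features. Of these members 6 were higher and 1 lower, against 32.4% and 33.4% of all features. Without spleen replicate 2, 3 members were lower, the added ones being Scin and Pla2g4f. In bulk RNA, fewer cells that express a gene and less RNA per cell cannot be told apart. The fit used 1 spread per gene over all 12 arrays, which the choice of the members had in view. With the 6 FoxP3-EGFP arrays alone, the same 6 members, Prm2 among them, passed (limma, adjusted p from 0.00068 to 0.00311). In that fit 8236 of all 15522 features were called, and nothing is read from the member count.

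None of the 9 members differed by the test between total tumour Treg and the mean of the IL10+ and IL10- fractions, a contrast that does not depend on the difference used for the choice (limma, adjusted p from 0.353 to 0.777). In this contrast 1.14% of all features were called. The differences were 0.30 ± 0.20 (SE) for Krt86, 0.38 ± 0.23 (SE) for Krt87, 0.40 ± 0.25 (SE) for Csta2 and 0.17 ± 0.16 (SE) for Actn2. They were 0.79 ± 0.44 (SE) for Prm2 and 0.63 ± 0.44 (SE) for Tnp2. They were -0.99 ± 0.71 (SE) for Scin, -0.71 ± 0.49 (SE) for Tff1 and -0.47 ± 0.79 (SE) for Pla2g4f. A p above the threshold does not show that the levels were alike, and the standard errors were widest for Pla2g4f and Scin. Reporter strain and gate cannot be told apart from the group in this contrast. Scan day was largely tied to it as well. All total tumour arrays were scanned on the first of 2 days, and all VERT-X arrays but IL10+ replicate 1 on the second.

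By choice of the genes, IL10+ and IL10- arrays did not overlap for any of the 9, against 7.41% of all features. In IL10+ Treg 8 were lower and 1 higher, against 5.59% and 1.82% of all features. With their sizes, from 1.52 for Actn2 to 4.13 for Pla2g4f, the members ranked between place 134 and place 4 of the 15522 features. The mean of total tumour Treg lay between those of the fractions for each of the 9. IL10- and total tumour arrays did not overlap for 9 members (27.7% of all features), and IL10+ and total tumour arrays did not overlap for 7 (23.1% of all features). These comparisons share arrays with the choice and with each other, and nothing is read from the counts.

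The slide on which an array was run was tied to the groups. All 3 IL10- arrays shared a slide with IL10+ replicate 2, and all 3 spleen arrays shared another with total tumour replicate 3. Within the first of these slides, IL10+ replicate 2 minus the IL10- mean was -2.36 for Krt86, -2.38 for Krt87, 2.34 for Csta2, -1.41 for Actn2, -4.23 for Scin, -3.19 for Prm2, -2.49 for Tnp2, -2.86 for Tff1 and -4.44 for Pla2g4f. The sign of each was fixed beforehand, because the IL10+ and IL10- arrays did not overlap for any member by the choice of genes. Nothing is read from these signs. Within the other slide, total tumour replicate 3 minus the spleen mean was 2.36 for Krt86, 2.46 for Krt87, 2.51 for Csta2, -2.08 for Actn2, 3.19 for Prm2 and 5.40 for Tff1, near the differences over all arrays. It was 1.65 for Tnp2, -0.20 for Scin and -1.85 for Pla2g4f.

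**Figure D4:**
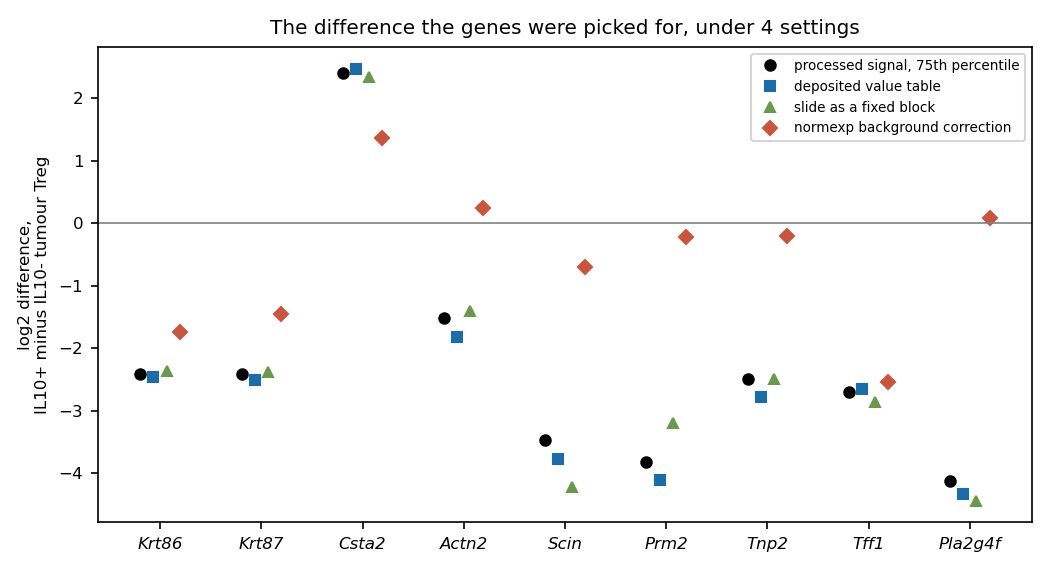
Difference between IL10+ and IL10- tumour Treg (log2), the one the genes were picked for, under 4 settings: the processed signal scaled to the 75th percentile, the deposited value table, slide as a fixed block, and normexp background correction of the mean spot signal. With normexp Actn2 and Pla2g4f come out at 0.25 and 0.091, on the other side of 0, and Prm2 and Tnp2 lie near 0, while Krt86, Krt87, Csta2 and Tff1 keep their sign with differences of -1.74, -1.45, 1.37 and -2.53.

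Values depended on the background correction. Normexp was run with an offset of 50 added to the corrected signal. For scale, the processed signal of Prm2 ran from 3.35 to 167. The part of the offset in the changes was not tested apart from that of the correction. With normexp in place of the processed signal, the IL10+ minus IL10- difference was 0.25 for Actn2 and 0.091 for Pla2g4f, the opposite sign, and -0.22 for Prm2, -0.20 for Tnp2 and -0.70 for Scin. In total tumour against spleen, every member lay nearer to 0 with normexp, and the widest move was that of Tff1, by -2.52. Krt86, Krt87, Csta2 and Tff1 stayed called, with smaller folds, and Actn2 and Prm2 did not. Only a part of the other genes named here was followed with normexp, without the B cell markers and the features most like each member. Of 26 genes in this part that were called between these groups, 15 did not pass with normexp: Krt18, Krt10, Krt14, Cstb, Cst3, Capg, Tssk6, Hspa1l, Ctsb, Mmp9, Zbtb46, Ccl17, Cd209a, Cdh1 and Rmi2 (limma, adjusted p from 0.0507 to 0.924).

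Genes next to the members were examined up to 4 protein-coding genes on either side in the order of GRCm38.p6. Of 59 distinct neighbours, 32 were tested, 17 were too dim and 10 had no probe. In the IL10+ minus IL10- difference, given as a description, 3 of the 32 exceeded 1 log2 unit in size: Csta1 (2.09), Krt80 (1.41, well above background on 3 of the 12 arrays) and the serine protease gene Tmprss3 beside Tff1 (-1.39). The median size was 0.30, against 0.19 over all features, of which 3.5% exceeded 1 log2 unit. Socs1, the cytokine signalling inhibitor beside Tnp2, had differences of -0.43 ± 0.32 (SE) between the fractions and 0.01 ± 0.32 (SE) between total tumour and spleen (limma, adjusted p = 0.983 for the latter). Between total tumour and spleen Treg 6 of the 32 neighbours rose and 10 fell, against 5 and 9 without spleen replicate 2 and 2 and 5 with normexp. Of all features 22% rose and 20.3% fell in the main fit, and nothing is read from the neighbour counts. Around Prm2, Rmi2 and Litaf rose by 2.19 ± 0.69 (SE) and 3.20 ± 0.21 (SE), while Snn fell by 3.73 ± 0.37 (SE) (limma, adjusted p = 0.0279, 4.8e-06 and 5.32e-05).

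**Figure D5:**
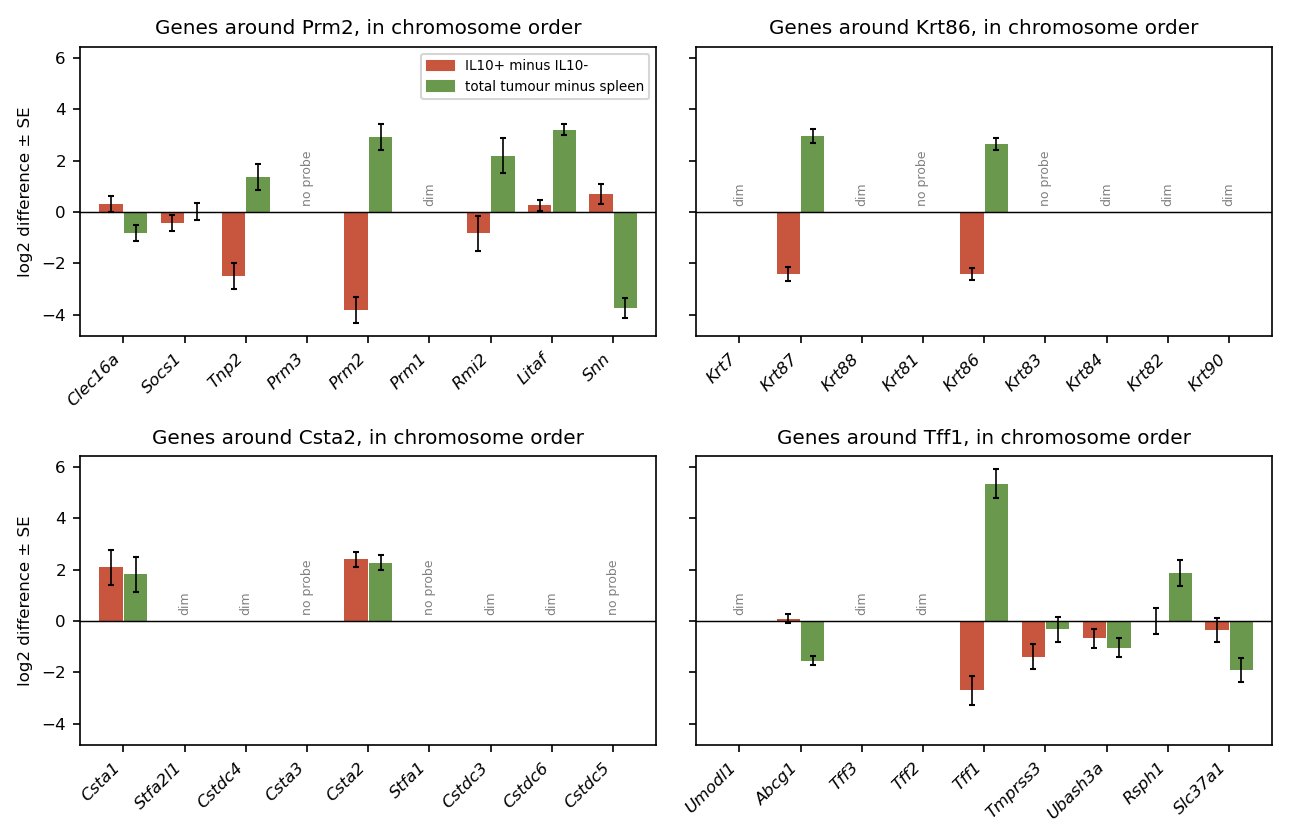
Log2 differences ± SE of the genes around Prm2, Krt86, Csta2 and Tff1, in chromosome order and evenly spaced, for IL10+ minus IL10- (red) and total tumour minus spleen Treg (green), with grey words for genes too dim or without a probe. Red bars beyond 1 log2 unit stand at Prm2 and Tnp2, at Krt86 and Krt87, at Csta2 and Csta1, and at Tff1 and Tmprss3; Prm2 was below background on all IL10+ and spleen arrays, so its bars are fitted values and not sizes of change.

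Markers of other cells moved with total tumour against spleen. Of 16 macrophage and monocyte markers, 15 rose, among them Apoe with 3.03 ± 0.39 (SE) and Ctsb with 1.04 ± 0.15 (SE) (limma, adjusted p = 0.000223 and 0.00042), and their summed level ran from 8.94 to 9.70 in total tumour and 6.40 to 7.37 in spleen Treg. With normexp 9 of the 16 rose. Of 12 fibroblast markers 10 rose, with a median difference over the list of 5.30. Thy1, a list member that T cells also make, carried most of the summed level in spleen and did not pass (0.05 ± 0.25 (SE); limma, adjusted p = 0.905). Without it the summed level of the other 11 ran from 6.81 to 7.26 in total tumour and from -0.92 to 2.32 in spleen Treg. Further, all 8 B cell markers fell (1.45 to 1.82 against 5.61 to 6.53). Of these, Cd79a, Pax5 and Fcer2a were well above background on 3 arrays only and highest in spleen. Their entry through the filter thus leaned on spleen, and their fall is no independent support. The part of macrophages, fibroblasts and B cells in the members' differences between total tumour and spleen was not tested. Between the IL10 fractions, all 16 macrophage markers were higher on average in IL10+ Treg, with a median difference of 0.42, which was -0.80 with normexp. Summed macrophage levels overlapped, from 9.12 to 9.48 in IL10- and 9.32 to 9.98 in IL10+ Treg.

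Of 17 neutrophil markers, 7 were tested and Ltf and Mmp9 rose in total tumour over spleen (limma, adjusted p = 2.24e-05 and 0.000337). Mmp9 rose by 2.52 ± 0.34 (SE), and Ltf, below background on all spleen arrays, was at least 34.4-fold higher. Ltf, which encodes the iron-binding protein lactotransferrin, averaged 2.60 ± 0.48 (SD, n = 3) in IL10-, 0.30 ± 0.44 (SD, n = 3) in IL10+, 1.05 ± 1.03 (SD, n = 3) in total tumour and -5.32 ± 0.82 (SD, n = 3) in spleen Treg. This is the order of groups of Tff1. Mmp9 averaged 2.15 ± 0.60 (SD, n = 3) in IL10- and 2.87 ± 0.39 (SD, n = 3) in IL10+ Treg, the reverse order. Camp, Ngp and Lcn2 were among 8 neutrophil markers too dim to test. Of 10 dendritic cell markers 8 were tested, of which 2 rose and 3 fell. Of those that fell, Siglech and Cd209a were highest in spleen and well above background on 3 and 5 arrays. For Cd209a 3 of these arrays were from spleen. Their entry through the filter thus leaned on spleen, and their fall is no independent support. Zbtb46 rose by 2.14 ± 0.45 (SE) (limma, adjusted p = 0.00373). Ccl17 was at least 2.67-fold higher in total tumour and Cd209a at least 2.67-fold lower, the other group being below background throughout (limma, adjusted p = 0.00704 and 0.00413).

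For each member the 2 named features with the most similar levels over the 12 arrays were noted, as a description over points that share groups and slides. After Krt86 and Krt87 with each other, 6030468B19Rik was the nearest to both, with r = 0.965 and 0.968. Tff1 was most like Lgals7, an epithelial galectin (r = 0.990), and the DNA repair and replication nuclease Fen1 (r = 0.982). Actn2 was most like the lectin gene Clec2i (r = 0.966) and Btla, an inhibitory receptor of lymphocytes (r = 0.966). Scin was most like Pla2g4f (r = 0.885) and Lyrm4 (r = 0.879), and Pla2g4f was most like Lad1 (r = 0.930) and Dscam (r = 0.923). Prm2 was most like Cenpv (r = 0.925) and Serp1 (r = 0.922), Tnp2 like Ydjc (r = 0.917) and Ppm1b (r = 0.893), and Csta2 like Fabp12 (r = 0.896) and Hnrnph1 (r = 0.886). Deviations from the group means of Scin had r = 0.875 with those of Tnp2, 0.863 with Tff1 and 0.788 with Pla2g4f, and spleen replicate 2 was low in all 4.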

How the data were processed

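RNA of sorted Treg was measured on 12 Agilent mouse expression arrays, 3 per group named by the labels. The deposited scanner files hold spot intensity from Agilent Feature Extraction, version 9.5.3.1 (program per the submitters' processing notes, version per the headers). The processed intensity was background-subtracted within each array, per the file headers, with probes annotated on mm8. Depth has no meaning for arrays, and the number of arrays limits precision. The deposited value table is on a log10 scale (r of at least 0.995 with log10 of the processed intensity, column medians 1.33). How it was normalized is not stated in the sources at hand, and it served as an alternative.

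Control and outlier-flagged spots were left out. Spots of a probe were averaged on log2 intensity, computed from the deposited signal, which reduced 43379 spots to 41174 probes, and the 75th percentile of each array was subtracted. RefSeq gene names of GRCm38.p6 were matched to probes, 23483 by accession, 6678 by symbol and 2887 by synonym, while 1826 kept the file's name and 6300 had none. The probe with the highest mean stood for a gene. Features well above background on at least 3 arrays were kept (15522). One linear model of 4 groups was fitted over all features with limma 3.58.1 in R 4.3.3 (two-sided, Benjamini-Hochberg within a contrast, called at an adjusted p under 0.05). Figures were drawn with matplotlib 3.10.9.

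Members and gene lists were chosen with earlier results of these data known. Named genes were the members, sort checks, tested genes of each family list, and the 2 features most like each member. From the cell lists some of the brightest, called and dim genes were named, and not all of them. Among those left out were the macrophage markers Trem2 and Ccl2, which had the widest differences of their list between total tumour and spleen. Csta1, Ltf and the neighbours were taken from these lists or the gene order, while Cd3e was named after its values were seen. Alternatives varied background correction (normexp with an offset of 50), scaling, filter, probes, slide, replicate block and single arrays. The steps were tested on simulated data.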

Additional observations from a re-analysis of the deposited data

How the results depend on the processing

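Between total tumour and spleen Treg, 5 members were called higher and 1 lower. The count of members called lower was 0 with normexp and, leaving out single arrays, 1 to 3, with 3 without spleen replicate 2. Tnp2 also passed when a probe had to be well above background on at least 6 arrays (adjusted p = 0.0483). Of all features, 6562 were called, 1863 with normexp and 3379 with slide as a fixed block. Between total tumour Treg and the mean of the fractions no member was called under any of the alternatives run. The 177 features called became 3 with normexp, 75 with quantile normalization, 77 with the deposited value table, 2 with no filter on dim probes, 334 with the filter at 6 arrays, 329 with all probes, 3 with slide as a fixed block, 14 with slide as a random block, 5 with only the arrays compared, and 2 to 1058 leaving out single arrays. Signs turned for Actn2 (-0.24), Prm2 (-0.39) and Tnp2 (-0.20) with normexp and for Pla2g4f (0.46) with slide as a fixed block. Between the IL10 fractions 3 members were higher with normexp, with Actn2 at 0.25 and Pla2g4f at 0.091. The 8 features called there became 3 with normexp, 2 with no filter, 0 with slide as a fixed block, 0 with only the 6 VERT-X arrays, and 0 to 19 leaving out single arrays. At an unadjusted p under 0.05 (limma), 720 features passed in the main fit and 4028 with normexp. With slide as a fixed block 636 passed, and 453 with only the 6 VERT-X arrays. With normexp the median difference moved from -0.20 to -1.23 for Treg and T cell markers and from -0.15 to 0.85 for B cell markers. The cause of these changes was not tested.

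Replicate numbers did not pair total tumour with spleen samples, while between the IL10 fractions a pairing was visible in part. The main fit used no pairing. Correlations of same-numbered deviations were 0.41, 0.43 and -0.24 between the IL10 fractions and -0.02, 0.08 and 0.00 between total tumour and spleen, and 4 of 6 and 2 of 6 arrays correlated best with their own number. With a replicate block, 6381 features were called between total tumour and spleen, 11 between total tumour and the mean of the fractions, and 3 between the fractions, and the block changed no call of a member in the first 2 of these. The third is the contrast that chose the members, so their calls there were built in by the choice and are not read. Dim spots limit Prm2, Pla2g4f, Scin and Tnp2 most.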
